A study of Mus musculus with 9 samples.

Results

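Sprouty, Spred and Dusp6 proteins are brakes that growth factor signalling puts on itself. The genes described here are Spry1, Spry2, Spry4, Spred1, Spred2 and Dusp6, taken by symbol, and all 6 had a row among the 11802 genes of the table. They were chosen by their CPM differences between the libraries labelled KO and WT, with earlier results of these data known. Those differences are therefore given as values with no p, and calls of these genes as description only. The RNA came from white adipose tissue of mice, captured on ribosomes of endothelial cells by RiboTag, in which Cre recombinase adds an HA tag to the ribosomal protein Rpl22 and an HA antibody pulls the tagged ribosomes down. There were 5 libraries labelled KO, from mice of the genotype Pdgfb-iCreERT2:Mfn2ideltaEC:Rpl22HA, which the labels describe as without Mfn2 in endothelial cells. The other 4 libraries, labelled WT, came from Pdgfb-iCreERT2:Rpl22HA mice with Mfn2 present. Both groups therefore carried the inducible Cre, driven by Pdgfb sequences that act in endothelial cells, and the tagged Rpl22. The sources used here do not state age, sex, induction or pooling of animals. The replicates are called biological, without the animals being named, so the spread between libraries may be partly technical.

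When a receptor tyrosine kinase such as the VEGF or FGF receptor binds its ligand, it activates Ras, which starts the kinase cascade of Raf, MEK and ERK. Active ERK raises transcription of several of its own inhibitors, and these then damp the cascade at different steps. Sprouty proteins act between the receptor and Raf, Spred proteins bring neurofibromin to Ras at the membrane, and DUSP6 is a cytoplasmic phosphatase that removes the activating phosphates from ERK. In blood vessels, Sprouty and Spred proteins restrain the outgrowth of endothelial sprouts.

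All libraries held endothelial RNA together with RNA of other cells. The 24 endothelial marker genes were all measured, and their summed level was 3853 to 8577 CPM (counts scaled to a common library total) in libraries labelled KO and 1283 to 4300 CPM in libraries labelled WT. Mfn2 did not separate the labels, at 66.7 ± 37.0 CPM in libraries labelled KO (SD, n = 5) and 36.1 ± 15.0 CPM in libraries labelled WT (SD, n = 4; limma adjusted p = 0.131), so each direction below rests on the labels. The labels do not name the deleted exons, and reads outside them do not check the deletion. Between 12.8% and 25.2% of reads in libraries labelled KO were mitochondrial rRNA, against 13.9% in WT replicate 4 and 47.5% to 64.8% in WT replicates 1 to 3. Most genes also lay higher in KO in CPM, with a difference of 0.98 between the library medians on the log2 scale. Each gene is given in CPM and also relative to the median gene of its library, which is called the relative log2 value. In bulk captures, fewer cells of a type and less RNA per cell cannot be told apart.

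Spry1, a Sprouty gene that restrains growth factor signalling in many tissues, was well separated between the groups. It had 42.8, 68.3, 73.9, 47.4 and 87.7 CPM in KO replicates 1 to 5, against 7.20, 13.5, 11.6 and 8.55 CPM in WT replicates 1 to 4. Every library labelled KO lay above every library labelled WT, and the lowest KO value exceeded the highest WT value by a wide margin. The group means were 64.0 ± 18.7 CPM in KO (SD, n = 5) and 10.2 ± 2.84 CPM in WT (SD, n = 4), a ratio of 6.28. Of the log2 fold change of 2.52 (SE 0.459, limma), 1.55 (SE 0.370) remained relative to the library median. The relative values were 1.04 to 1.97 in KO and −0.84 to 0.36 in WT, so the groups did not overlap on that scale either. These levels rest on 81 to 341 reads per library in KO and 9 to 34 reads in WT. Spry1 (ENSMUSG00000037211) is a gene on the plus strand of chromosome 3, from 37639947 to 37644598 in GRCm38.

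Spry2, the Sprouty protein best known for binding the ubiquitin ligase CBL, showed the same order of groups with a smaller distance. Its levels were 32.8, 22.9, 35.7, 28.1 and 44.8 CPM in KO replicates 1 to 5, against 5.85, 10.3, 3.68 and 16.2 CPM in WT replicates 1 to 4. Again no library labelled WT reached the lowest library labelled KO. Means were 32.9 ± 8.23 CPM in KO (SD, n = 5) and 8.99 ± 5.51 CPM in WT (SD, n = 4). The log2 fold change was 1.90 (SE 0.514), and 0.92 (SE 0.395) relative to the library median. Relative values ran from 0.36 to 0.88 in KO and from −1.16 to 0.00 in WT, the lowest being WT replicate 3 with 7 reads. Spry2 (ENSMUSG00000022114) lies on the minus strand of chromosome 14, from 105891947 to 105896819.

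Spry4, a Sprouty gene induced by FGF signalling, varied far more between libraries than the other Sprouty genes. It had 11.5, 0.96, 34.3, 13.5 and 72.8 CPM in KO replicates 1 to 5, against 0.90, 2.77, 0 and 3.80 CPM in WT replicates 1 to 4. KO replicates 1, 3, 4 and 5 lay above all WT libraries, while KO replicate 2, with 2 reads, lay among them. The count of 0 in WT replicate 3 allows up to 1.58 CPM, taking 3 reads as the limit for counting error. Means were 26.6 ± 28.5 CPM in KO (SD, n = 5) and 1.87 ± 1.73 CPM in WT (SD, n = 4), the SD in KO being larger than the mean. The log2 fold change was 2.69 (SE 0.734), and 1.71 (SE 0.753) relative to the library median. That relative value was 1.20 without KO replicate 5 and 2.39 without KO replicate 2. The gene (ENSMUSG00000024427) is on chromosome 18, and its short overlapping RNA genes on the other strand had no row in the table.

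**Figure D1:**
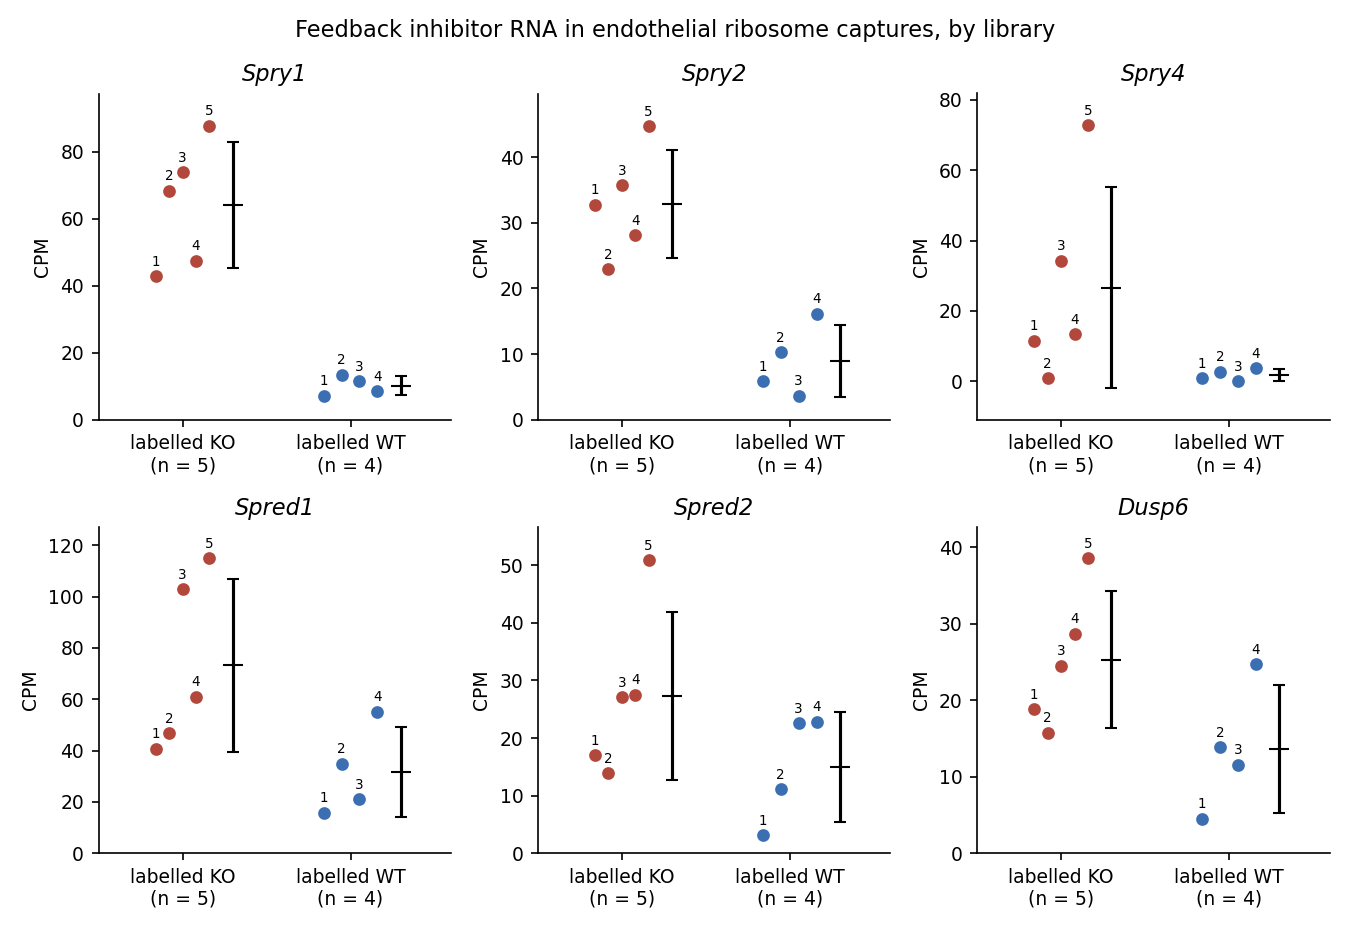
CPM of the 6 genes in each library (points, numbered by replicate), with the group mean and SD beside them, in 5 libraries labelled KO and 4 labelled WT. For Spry1 and Spry2 every KO point lies above every WT point, while for Spry4, Spred1, Spred2 and Dusp6 the groups overlap.

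The 250 bases upstream of the RefSeq transcription start (GRCm38.p6) are shown for Spry1 and Spry2, the pair whose groups did not overlap, and for Dusp6, which stayed near the general shift. Capitals mark CG dinucleotides. The stretches are chr3:37639697-37639946 (plus strand) for Spry1, chr14:105896820-105897069 (minus strand) for Spry2 and chr10:99262981-99263230 (plus strand) for Dusp6.
Spry1: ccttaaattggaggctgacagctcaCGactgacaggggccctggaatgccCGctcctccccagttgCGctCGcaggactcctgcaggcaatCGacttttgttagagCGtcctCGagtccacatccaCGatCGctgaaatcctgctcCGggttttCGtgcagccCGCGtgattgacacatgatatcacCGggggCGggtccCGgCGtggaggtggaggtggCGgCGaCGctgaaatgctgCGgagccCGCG
Spry2: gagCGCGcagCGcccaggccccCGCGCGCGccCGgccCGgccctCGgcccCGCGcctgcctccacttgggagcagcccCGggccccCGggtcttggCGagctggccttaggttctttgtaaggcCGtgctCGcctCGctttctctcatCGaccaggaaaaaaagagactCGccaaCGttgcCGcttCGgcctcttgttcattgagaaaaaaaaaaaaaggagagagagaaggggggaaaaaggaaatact
Dusp6: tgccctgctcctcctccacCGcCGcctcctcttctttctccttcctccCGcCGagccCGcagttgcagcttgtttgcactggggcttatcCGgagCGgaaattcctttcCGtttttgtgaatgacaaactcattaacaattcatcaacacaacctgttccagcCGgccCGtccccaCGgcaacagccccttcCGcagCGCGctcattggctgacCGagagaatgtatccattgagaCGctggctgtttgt
The stretches of Spry1 and Spry2 hold 23 CG dinucleotides and 62.4% G or C each, and that of Dusp6 holds 16 and 56.4%. The same stretch of Spred1 holds 31 and 70.8%, and that of Spred2 holds 12 and 56.0%, so CG content does not set the Sprouty genes apart. The median over 32851 RefSeq promoter windows is 52.4% G or C. A search on both strands of the 300-base windows, which run on 50 bases past the start, looked for CCGGAAGT (bound by ETS factors), GTAAACA (FOXO), TGANTCA (AP-1), TGACGTCA (CRE) and CACGTG (E-box). No string contains another. None was found in the 5 windows matched, those of Spry1, Spry2, Spred1, Spred2 and Dusp6. Over all windows the strings occurred in 3.89%, 3.65%, 7.81%, 1.79% and 7.15%, in that order. The absence says only that these letters are not in these windows.

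The Spred genes and Dusp6 had higher mean CPM in the libraries labelled KO, by about as much as the median gene. Spred1, which recruits neurofibromin to Ras, had 40.7, 46.8, 103, 60.9 and 115 CPM in KO replicates 1 to 5, against 15.8, 34.8, 21.01 and 55.1 CPM in WT replicates 1 to 4. WT replicate 4 lay above KO replicates 1 and 2, so the groups overlapped. Its log2 fold change was 1.22 (SE 0.453) in CPM and 0.24 (SE 0.334) relative to the library median. The means were 73.2 ± 33.6 CPM in KO (SD, n = 5) and 31.7 ± 17.6 CPM in WT (SD, n = 4). The gene (ENSMUSG00000027351) spans 117121374 to 117182279 on chromosome 2.

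Spred2, its paralogue with the same action on Ras, had 17.0, 13.9, 27.1, 27.5 and 50.9 CPM in KO replicates 1 to 5, against 3.15, 11.1, 22.6 and 22.8 CPM in WT replicates 1 to 4. WT replicates 3 and 4 lay above KO replicates 1 and 2. The log2 fold change was 0.99 (SE 0.544) in CPM and 0.01 (SE 0.447) relative to the library median. Dusp6, the ERK phosphatase often read as a marker of ERK activity, had 18.8, 15.8, 24.5, 28.7 and 38.6 CPM in KO replicates 1 to 5, against 4.50, 13.9, 11.6 and 24.7 CPM in WT replicates 1 to 4. WT replicate 4 lay above KO replicates 1, 2 and 3. Its log2 fold change was 0.98 (SE 0.522) in CPM and 0.00 (SE 0.39) relative to the library median. Spred2 (ENSMUSG00000045671) is on chromosome 11 from 19924375 to 20024026, and Dusp6 (ENSMUSG00000019960) on chromosome 10 from 99263231 to 99267489.

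Set against all genes, the Sprouty genes stood high and the others near the middle. The 6 genes had a median log2 fold change of 1.56 in CPM, beside 1.10 over all genes, and of 0.58 relative to the library median, beside 0.12 over all genes. For the 3 Sprouty genes alone the relative median was 1.55, and for both Spred genes with Dusp6 it was 0.01. Ranked by relative fold change, 0.5% of all genes lay above Spry4, 1.1% above Spry1 and 8.8% above Spry2. The shares were 41.4% above Spred1, 57.3% above Spred2 and 57.8% above Dusp6. The limma fit over all genes called 4 of the 6 genes higher in CPM, namely Spry1, Spry2, Spry4 and Spred1, where 32.0% of all genes were called higher and 0.203% lower. With 1 library left out in turn, the Sprouty genes were called in 9 of 9 fits and Spred1 in 3 of 9. In the other 15 alternatives Spry1 was called in 9, Spry2 and Spry4 in 7 each and Spred1 in 5. Rescaling without mitochondrial rRNA kept the call of Spry1 and ended those of Spry2, Spry4 and Spred1. Quantile normalisation and each of the adipocyte, endothelial and mitochondrial rRNA covariates ended all 4. Relative to the library median it called 0 of the 6, where 0.0339% of all genes were called higher, 0.0763% were called lower and 1378 of 11802 had an unadjusted p under 0.05. On recovered whole reads, edgeR called 0 of the 6 (0.00847% of all genes higher). DESeq2 called Spry1 alone (0.773% of genes with an adjusted p were higher), and gave no adjusted p for 4 of the 6. Libraries of the 2 groups did not overlap in CPM for 2 of the 6 genes (18.7% of all genes, KO higher, and 0.0254%, KO lower). On the relative scale the same was true of those 2 genes (2.07% of all genes, KO higher). The genes were picked with this comparison in view. The calls and counts, also those with 1 library left out, therefore describe them and do not test them.

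**Figure D2:**
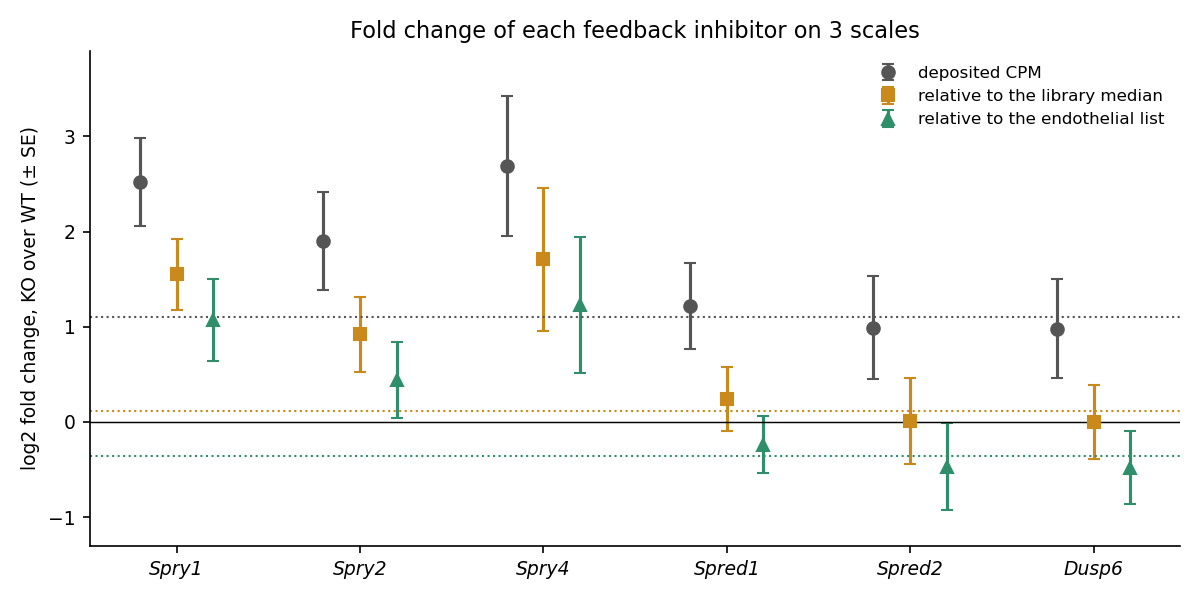
Log2 fold change, KO over WT, of each gene in deposited CPM (circles), relative to the library median (squares) and relative to the mean of 24 endothelial markers (triangles), with SE from limma (5 and 4 libraries). Dotted lines give the median of all genes on each scale (1.10, 0.12 and −0.36). Spry1, Spry2 and Spry4 lie above the dotted line of each scale, and Spred1, Spred2 and Dusp6 lie near it.

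Ratios within a library do not depend on how its reads were scaled. The summed CPM of Spry1, Spry2 and Spry4 was 1.14, 1.21, 0.932, 0.760 and 1.00 times that of Spred1, Spred2 and Dusp6 in KO replicates 1 to 5. In WT replicates 1 to 4 the ratio was 0.596, 0.444, 0.276 and 0.278. All 5 KO ratios lay above all 4 WT ratios, with means of 1.01 ± 0.177 in KO (SD, n = 5) and 0.399 ± 0.153 in WT (SD, n = 4). The ratio is built from the CPM values given above, in the comparison used to choose the genes. Its separation therefore restates those values and is no separate evidence. The Sprouty sum was 87.1 to 205 CPM in KO and 14.0 to 28.5 CPM in WT, resting on 152 to 798 reads in KO and only 29 to 67 reads in WT. The sum of the other 3 genes was 76.5 to 204.5 CPM in KO and 23.4 to 103 CPM in WT, and there the groups overlapped.

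The mix of Sprouty genes also varied from library to library. Of all Sprouty reads in libraries labelled KO, Spry1 took between 42.7% (95% Wilson interval 39.3 to 46.2) in replicate 5 and 74.1% (67.5 to 79.8) in replicate 2. In libraries labelled WT its share lay between 30.0% (16.7 to 47.9) in replicate 4 and 75.9% (57.9 to 87.8) in replicate 3, so the groups overlapped. Spry4 took from 1.04% (0.285 to 3.70) of Sprouty reads in KO replicate 2 to 35.5% (32.2 to 38.8) in KO replicate 5, and at most 13.3% (5.31 to 29.7) in WT, in replicate 4. Spry2 took 28.1% ± 6.39 in KO (SD, n = 5) and 40.4% ± 13.4 in WT (SD, n = 4). The intervals cover counting error only. Spred1 had 2.21 to 3.80 times the reads of Spred2 in KO and 0.930 to 5.00 times in WT, a wider span in WT.

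Per kilobase of annotated exon, Spry1 headed the order of mean levels in KO but not in WT. In libraries labelled KO the order of mean levels was Spry1 (22.0 ± 6.45 CPM per kb), Spry2 (15.8 ± 3.94), Spred1 (10.8 ± 4.96), Dusp6 (8.07 ± 2.86), Spred2 (5.91 ± 3.15) and Spry4 (5.60 ± 5.99; SD, n = 5 each). Each gap between neighbours there was smaller than the larger of their SDs, which measure spread between libraries. Within the 5 KO libraries, Spry2 exceeded Spred1 in 5, Dusp6 exceeded Spred2 in 5 and Spry1 exceeded Spry2 in 4. Spred1 exceeded Dusp6 in 3, and Spred2 exceeded Spry4 in 3. In libraries labelled WT the order was Spred1 (4.67 ± 2.59 CPM per kb), Dusp6 (4.36 ± 2.67), Spry2 (4.31 ± 2.64), Spry1 (3.51 ± 0.976), Spred2 (3.23 ± 2.07) and Spry4 (0.393 ± 0.364; SD, n = 4 each). The gap above Spry4 was the only one in WT larger than the SD of both neighbours, and Spred2 exceeded Spry4 in all 4 WT libraries.

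The level of endothelial markers moved with several of these genes. Their mean relative log2 value was 2.27, 2.49, 3.24, 2.94 and 3.23 in KO replicates 1 to 5, against 2.23, 2.44, 2.04 and 2.70 in WT replicates 1 to 4. KO replicates 3 and 5, the highest, also held the highest Spry4 and Spred1. Over the 9 libraries, which share only their relative scale, Pearson's r with the endothelial mean was 0.89 for Spred1, 0.82 for Spry4, 0.70 for Spry2, 0.55 for Dusp6, 0.48 for Spry1 and 0.33 for Spred2. After each group's mean was subtracted, r was 0.93 for Spred1, 0.74 for Spry4, 0.68 for Dusp6, 0.49 for Spry2, 0.40 for Spred2 and −0.06 for Spry1. Per 100 CPM of endothelial markers, the Sprouty sum was 2.26, 2.37, 1.71, 1.31 and 2.39 CPM in KO replicates 1 to 5, against 1.09, 1.15, 0.900 and 0.663 CPM in WT replicates 1 to 4. These groups did not overlap, in a sum of genes chosen by this comparison. The sum of the Spred genes and Dusp6 was 1.72 to 2.38 CPM per 100 CPM in KO and 1.82 to 3.26 CPM in WT, and here they did.

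**Figure D3:**
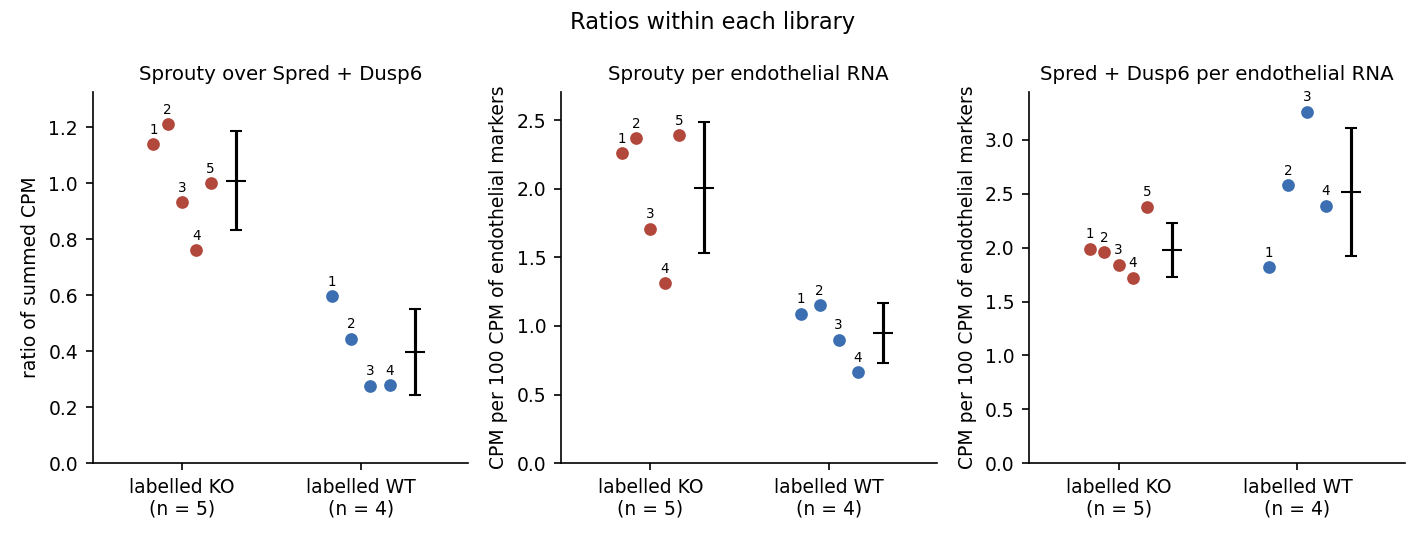
Sprouty CPM (Spry1, Spry2 and Spry4) over the CPM of Spred1, Spred2 and Dusp6 (left), and each sum per 100 CPM of 24 endothelial markers (middle and right), by library with mean and SD (KO n = 5, WT n = 4). The KO points lie above the WT points on the left and in the middle, and overlap them on the right.

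Relative to the endothelial markers in place of the median gene, the fold changes were lower for all 6 genes and stayed above 0 for the Sprouty genes, whose groups overlapped on this scale. The log2 fold change was then 1.07 (SE 0.428) for Spry1, 0.44 (SE 0.399) for Spry2 and 1.23 (SE 0.715) for Spry4. It was −0.24 (SE 0.298) for Spred1, −0.47 (SE 0.454) for Spred2 and −0.48 (SE 0.382) for Dusp6, beside a median of −0.36 over all genes. With the endothelial mean as a covariate in CPM, the log2 fold change was 2.21 for Spry1, 0.82 for Spry2, −0.11 for Spry4, −0.32 for Spred1, −0.57 for Spred2 and −0.45 for Dusp6, and limma called 0 of the 6.

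**Figure D4:**
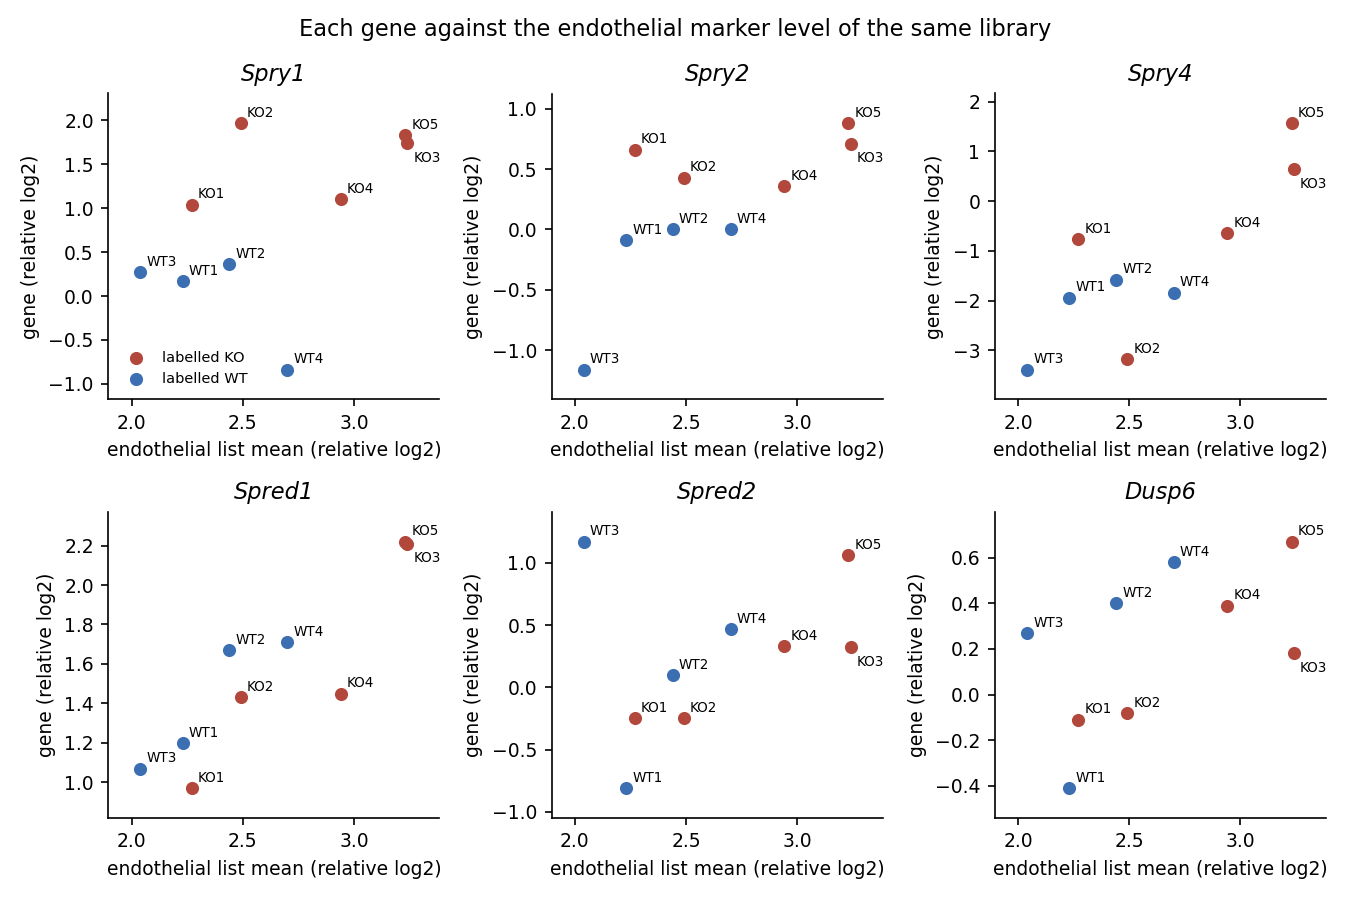
Relative log2 value of each gene (vertical) against the mean relative log2 value of 24 endothelial markers (horizontal) in the 9 libraries. KO replicates 3, 4 and 5 lie to the right of every library labelled WT. KO replicates 1 and 2 lie within the WT span of endothelial levels. There Spry1 was at 1.04 and 1.97 (−0.84 to 0.36 in WT) and Spry2 at 0.66 and 0.43 (−1.16 to 0.00 in WT). Spry4 was at −0.77 and −3.18 (−3.39 to −1.58 in WT) and Spred1 at 0.97 and 1.43 (1.07 to 1.71 in WT). Spred2 (−0.25 in both) and Dusp6 (−0.11 and −0.08) lay inside their WT ranges. The part of endothelial content in these values was not tested.

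In CPM, where most genes lay higher in KO, some marker lists of other cells separated the groups as well. In mean relative log2 value only the skeletal muscle list did, at 0.26 to 4.52 in KO and −0.75 to 0.13 in WT. The adipocyte list then ran from 2.23 to 3.20 in KO and from 2.25 to 3.42 in WT. For the mural list these ranges were 0.63 to 1.29 and −0.14 to 1.13, and the fibroblast and macrophage lists overlapped too. Skeletal muscle genes, 12 of 15 measured, summed to 538 to 9881 CPM in KO, highest in replicate 5, and 111 to 278 CPM in WT, and Tnnc2, Ckm and Mylpf had no row. The mural list, 8 of 12 genes measured and without Rgs5 and Kcnj8, summed to 377 to 789 CPM in KO and 172 to 289 CPM in WT. Adipocyte genes, all 24 measured, summed to 12433 to 26245 CPM in KO and 6109 to 10979 CPM in WT. For fibroblast genes (12 of 14) the sums were 2675 to 13667 CPM in KO and 3033 to 10036 CPM in WT, and for macrophage genes (11 of 12) 742 to 1599 CPM in KO and 309 to 1236 CPM in WT. With the skeletal muscle mean, r was 0.70 for Spry1, 0.69 for Spry2 and 0.72 for Spry4, and 0.34, 0.38 and 0.57 after group means were subtracted. With the fibroblast mean, r was −0.19 for Spry1, −0.57 for Spry2 and −0.63 for Spry4. After that subtraction it was 0.83 for Spry1, −0.21 for Spry2 and −0.46 for Spry4. The part of these cells in the Sprouty values was not tested. Without KO replicate 5, the relative log2 fold change was 1.47 for Spry1 and 0.85 for Spry2, and without WT replicate 1, the library richest in mitochondrial rRNA, it was 1.61 and 0.99. WT replicate 4, whose mitochondrial rRNA share lies in the KO range, held 8.55 CPM of Spry1 and 16.2 CPM of Spry2, below the lowest library labelled KO for both. This is 1 library, with 9 reads of Spry1 and the highest Spry2 level of the WT libraries. The part of mitochondrial rRNA in the Sprouty values was not tested.

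The 6 genes did not form a single pattern among themselves. Over 9 libraries, the highest correlations of relative values were between Spred2 and Dusp6 (r = 0.81), Spry2 and Spry4 (0.75) and Spry4 and Spred1 (0.70). Spry1 had r = 0.64 with Spry2, which turned to −0.17 once group means were subtracted. That value includes the low Spry1 of WT replicate 4 (9 reads) and the low Spry2 of WT replicate 3 (7 reads). It therefore does not settle whether the pair varied together within groups. Spred2 and Dusp6 kept r = 0.81 within groups. Among 7949 other genes with a symbol and at least 10 CPM, those most like the mean of the 6 were Kctd12 and Sypl (r = 0.98 each), then Bcar1, Pon2 and Cd2ap (0.97 each). With group means subtracted they were Bcar1 (0.97), Gm15464, Kctd12, Gm10689 and Nucks1 (0.96 each), of which Gm15464 and Gm10689 are processed pseudogenes that may share reads with their parent genes. These are the highest of many correlations over few libraries.

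Some of the other pathway genes rose in CPM, and none was called relative to the library median. In all, 7 lists of other pathway genes held 145 genes, of which 122 were measured. In CPM, 53 of the 122 rose (43.4%, beside 32.0% of all genes) and 0 fell by limma. Relative to the library median, limma called 0 in either direction, and the median was 0.14, beside 0.12 over all genes. The count was 17 without WT replicate 1, and 0 were called by edgeR or DESeq2, with quantile normalisation or after rescaling without mitochondrial rRNA. Some of these genes are also endothelial markers: 4 receptors, 1 other brake, 2 ETS factors and 1 Sprouty partner. Of the 24 endothelial markers, 20 were called higher in CPM.

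Among receptors, 13 of 25 measured genes rose in CPM (32.0% of all genes did), beside a relative median of 0.40. Kdr encodes the VEGF receptor that drives most endothelial responses and was at 1187 ± 505 CPM in KO (SD, n = 5) and 360 ± 202 CPM in WT (SD, n = 4), which is 1.75 higher in log2 CPM (adjusted p = 0.00753 in limma) and 0.77 higher on the relative scale (adjusted p = 0.326). Tek, the angiopoietin receptor, Igf1r, the IGF-1 receptor, and Tie1, a partner of Tek, also rose in CPM (1.70, 1.91 and 1.38), with relative changes of 0.72, 0.93 and 0.40. Tie1 had −0.08 relative to the endothelial list, which holds 4 of these receptors.

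Of 28 genes for adaptors, Ras proteins and kinases of the cascade, 11 rose in CPM (32.0% of all genes did), with a relative median of 0.08. The scaffold gene Ksr1, the MEK1 gene Map2k1 and Shoc2, which helps activate Raf, rose by 1.98, 1.5 and 1.94 in CPM (limma adjusted p = 0.0108, 0.0130 and 0.0133), with relative changes of 1.01, 0.52 and 0.97. Iqgap1, a scaffold of the cascade, rose in CPM by 1.10 and had a relative change of 0.13.

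Other brakes gave a similar picture. Of 25 measured inhibitors outside the Sprouty, Spred and Dusp families, 11 rose in CPM, beside 32.0% of all genes, and the relative median was 0.27. Among them was Ptprb, the endothelial receptor phosphatase VE-PTP, at 348 ± 172 CPM in KO (SD, n = 5) and 111 ± 64.2 CPM in WT (SD, n = 4). The adaptor gene Grb10 and the phosphatase subunit gene Ppp2ca rose by 1.59 and 1.49, with relative changes of 0.61 and 0.51. Rasa1, a GTPase-activating protein for Ras, differed by 0.92 in log2 CPM (adjusted p = 0.0755 in limma) and by −0.06 on the relative scale. Of 11 other Dusp, Sprouty and Spred genes listed, 5 were measured. Dusp1, Dusp16 and Dusp8, which act mainly on p38 and JNK, rose by 1.67, 1.79 and 2.48 in CPM (limma adjusted p = 0.0124, 0.0133 and 0.0148), with relative changes of 0.70, 0.81 and 1.5. Dusp7, the closest of the measured genes to Dusp6 in its action on ERK, was at 38.8 ± 5.52 CPM in KO (SD, n = 5) and 35.3 ± 26.1 CPM in WT (SD, n = 4), with a relative change of −0.55 (adjusted p = 0.578).

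Of 24 listed ERK-responsive genes 12 had a row, and 5 of them rose in CPM (32.0% of all genes did), with a relative median of 0.11. Hbegf, a ligand of the EGF receptor, had 5.77, 7.65, 18.4, 17.0 and 19.0 CPM in KO replicates 1 to 5, against 0, 1.19, 1.58 and 1.90 CPM in WT replicates 1 to 4, at most 3 reads in a WT library. Its groups did not overlap in CPM (18.7% of all genes, KO higher) or on the relative scale (2.07% of all genes, KO higher). The relative change of Hbegf was 1.74 (limma adjusted p = 0.229). Plaur, the urokinase receptor gene, and the transcription factor gene Maff rose by 2.26 and 1.91 in CPM, with relative changes of 1.28 and 0.93. The cyclin D1 gene Ccnd1 and the AP-1 gene Fosl2 had log2 fold changes of 0.55 and 0.64 in CPM (adjusted p = 0.302 and 0.194 in limma), and on the relative scale these were −0.42 and −0.34.

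Of 14 measured ETS factors and Srf, 6 rose in CPM (32.0% of all genes did), with a relative median of 0.01. Ets1, abundant in endothelium, was at 289 ± 147 CPM in KO (SD, n = 5) and 85.7 ± 43.7 CPM in WT (SD, n = 4), with a relative change of 0.76. Fli1 and Ets2 rose by 1.95 and 1.55 in CPM, with relative changes of 0.98 and 0.57. Of 13 measured partners and regulators of Sprouty and Spred proteins, 4 rose in CPM, near the 32.0% of all genes that did. The relative median was −0.24. They include Cav1, which encodes caveolin-1 and binds Sprouty proteins, the ubiquitin ligase gene Nedd4 and the endothelial gene Egfl7, which hosts a microRNA known to repress Spred1. Their changes in CPM were 1.36, 1.44 and 1.65, and their relative changes 0.38, 0.46 and 0.68.

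**Figure D5:**
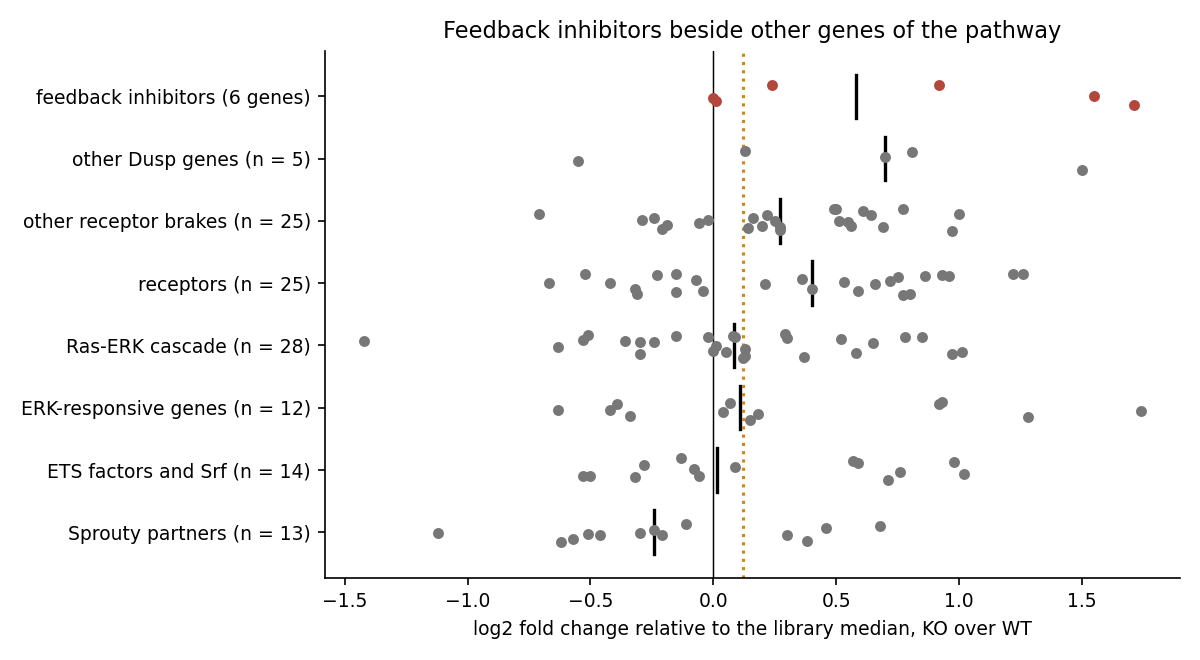
Log2 fold change relative to the library median, KO over WT, of the 6 feedback inhibitors (red) and of the measured genes of 7 other pathway lists (grey), with each list's median (black bars) and the median of all genes (dotted line, 0.12). The highest red points are Spry4 (1.71), Spry1 (1.55) and Spry2 (0.92), and limma called 0 of the grey genes on this scale.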

How the data were processed

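Per the labels' protocols, each capture used 50 to 100 mg of tissue, and libraries were built from 2 to 5 ng RNA by template-switching cDNA synthesis and tagmentation, which keeps no strand. The authors deposited CPM values, for 11802 genes in 9 libraries. Listed in the submitters' processing notes, without their roles, are HISAT2 2.1.0, Trimmomatic 0.39, FastQC 0.11.9, R 4.0.2, edgeR 3.32.0, mm10 and GRCm38. The read counter is not given in the sources used here. Symbols, coordinates and exon lengths came from GENCODE M21 (GRCm38), which matched 11787 genes.

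Each library's CPM were whole multiples of 1 step (at least 99.923% of nonzero values within 0.1 read), so reads were recovered, 1034753 to 3829353 per library. The main test was limma 3.58.1 (R 4.3.3, mean-variance trend) on log2(CPM + 1), with Benjamini-Hochberg adjusted p under 0.05 over all genes, before and after subtracting library medians. The fold changes understate those of low genes. A mean CPM filter at 1 removed no gene (lowest mean 1.77). EdgeR 4.0.16 and DESeq2 1.42.0 were run on the recovered reads, and the fits were checked on simulated data. The members and lists were chosen with earlier results of these data known. Named genes were the members, Mfn2 and, per list, genes called relative to the median, up to 3 called in CPM with the smallest p and the 2 most abundant, then the 5 most correlated genes. A gene that this rule names is not reported here. The alternatives were pseudocounts, filters, scalings, covariates, array weights, a replicate block and each library left out.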

Additional observations from a re-analysis of the deposited data

Results flagged for a closer look

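Within the 4 libraries labelled WT, replicate 4 had a Spry1 relative log2 value of −0.84, far below replicates 1 to 3 (0.17 to 0.36), and it rests on 9 reads. Replicate 3 had a Spry2 relative log2 value of −1.16, far below the other WT libraries (−0.09 to 0.00), and it rests on 7 reads. Among the 5 libraries labelled KO, replicate 5 had a skeletal muscle marker sum of 9881 CPM, against 538 to 1004 CPM in KO replicates 1 to 4. Each was found by Dixon's gap test at the 95% level, in 48 checks of the members, their ratios and the marker sums, and chance flags about 1 in 20 such groups.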

How the results depend on the processing

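Over 24 alternatives the relative log2 fold change stayed above 0 for Spry1 (1.07 to 2.15), Spry2 (0.44 to 1.03) and Spry4 (0.34 to 2.82), and fell on either side of 0 for Spred1 (−0.31 to 0.42), Spred2 (−0.57 to 0.32) and Dusp6 (−0.49 to 0.13). The median of the 6 genes, 1.56 in CPM and 0.58 relative, was 0.57 with quantile normalisation, 0.55 with edgeR, 0.56 with DESeq2, 0.10 relative to the endothelial list, 0.72 in CPM with the mitochondrial rRNA covariate, and −0.22 in CPM and 0.02 relative with the endothelial covariate. Both covariates were chosen after seeing the data. Leaving out 1 library gave 1.36 to 1.87 in CPM and 0.48 to 0.68 relative.

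In CPM, 3780 genes were called higher and 24 lower, and 53 pathway genes higher. Leaving out 1 library gave 1094 to 5916 higher and 7 to 23 lower, and 17 to 72 pathway genes, with 17 without WT replicate 1, 33 without WT replicate 3, 34 without KO replicate 3 and 35 without KO replicate 5. There were 10 lower without trend. No pathway gene was called after rescaling without mitochondrial rRNA (21 higher and 4 lower over all genes), with quantile normalisation (4 and 5), relative to the endothelial list (0 and 0), with the adipocyte (5 and 0), endothelial (0 and 0) or mitochondrial rRNA covariate (16 and 2), with edgeR (1 and 4) or with DESeq2 (31 and 124). Relative to the library median, 4 genes were called higher and 9 lower. That became 2 and 2 with a pseudocount of 0.5, 3 lower when the mean CPM minimum was 5, 5 lower with quantile normalisation, 0 and 0 without trend, against the endothelial list or with either covariate added later, 11 and 52 with array weights, 2 higher with the adipocyte covariate, and 0 to 21 higher and 0 to 106 lower with 1 library left out. The cause was not tested.

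Relative to the endothelial list the calls in CPM turned to −0.24 for Spred1, −0.10 for Cav1, −0.35 for Iqgap1, −0.02 for Nedd4 and −0.08 for Tie1. With the endothelial covariate they turned to −0.11 for Spry4, −0.32 for Spred1, −0.07 for Ets2, −0.19 for Igf1r, −0.05 for Ptprb, −0.03 for Tek and −0.36 for Tie1. Libraries of the same replicate number did not deviate together (correlations −0.040 to 0.039 in 4 pairs, and 1 of 4 KO libraries correlated best with its own number). This check on 4 pairs shows no pairing by number and cannot exclude one. With the replicate number as a block, 1932 genes were called higher and 8 lower in CPM, and 8 higher and 30 lower relative to the median. In WT, 29 to 67 Sprouty reads per library limit the precision.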
